A study of Mus musculus with 10 samples.

Results

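The expression of 10 genes that mark the pyramidal neurons of the hippocampal subfields was followed in whole hippocampus: Wfs1, Fibcd1, Pou3f1 and Mpped1 for CA1, Amigo2 and Rgs14 for CA2, and Bok, Cdh24, Iyd and Nnat for CA3. They were chosen by name as subfield markers, and each was read from the brightest probe set that the platform annotation gives to that gene alone. All 10 were measured, out of 19938 genes that could be named and tested, and all 10 lay above the 40th percentile of mean signal. Hippocampi of 10 male mice aged 16 weeks were hybridised, 1 array per mouse, each holding RNA of the right and left hippocampus together. In 5 of them the Cbr1 to Fam3b segment of chromosome 16 was duplicated in tandem (Dp1Rhr), which models part of the trisomy of Down syndrome, and the other 5 were control littermates. The labels give all 10 a C57BL/6N background and place the controls in a cross of the Dp5Yah and Dp1Rhr lines, with a wild-type genotype, so that they carried neither duplication. The duplication is present in every cell of the animal, and none of the 10 markers lies on chromosome 16.

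The pyramidal layer of the hippocampus is divided into fields that signal in series. Granule cells of the dentate gyrus contact CA3 neurons through the mossy fibres, CA3 neurons contact CA1 neurons through the Schaffer collaterals, and CA1 sends the main output to the subiculum and cortex. CA2, a small field between them, receives direct entorhinal input and is needed for social memory. Each field keeps its own set of expressed genes in the adult, which is why single genes can serve as field markers. In a bulk sample such as this, fewer cells of a field and less RNA per cell cannot be told apart.

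No marker passed the threshold between Dp1Rhr and control. limma, with Benjamini-Hochberg adjustment over all genes, put 0 of 10 markers below an adjusted p of 0.05, against 0.802% of all genes tested (160 of 19938). At an unadjusted p of 0.05 in limma, 2 of 10 markers passed, Nnat and Pou3f1, against 15.0% of all genes. FCROS, the rank-based method the study used, called 1 marker, Nnat, against 5.39% of all genes. The 2 groups overlapped in all 10 markers, whereas 3.52% of all genes had groups that did not overlap. The signed differences split into 6 markers higher in Dp1Rhr and 4 lower, with a median log2 fold change of 0.03 against -0.00 over all genes.

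**Figure D1:**
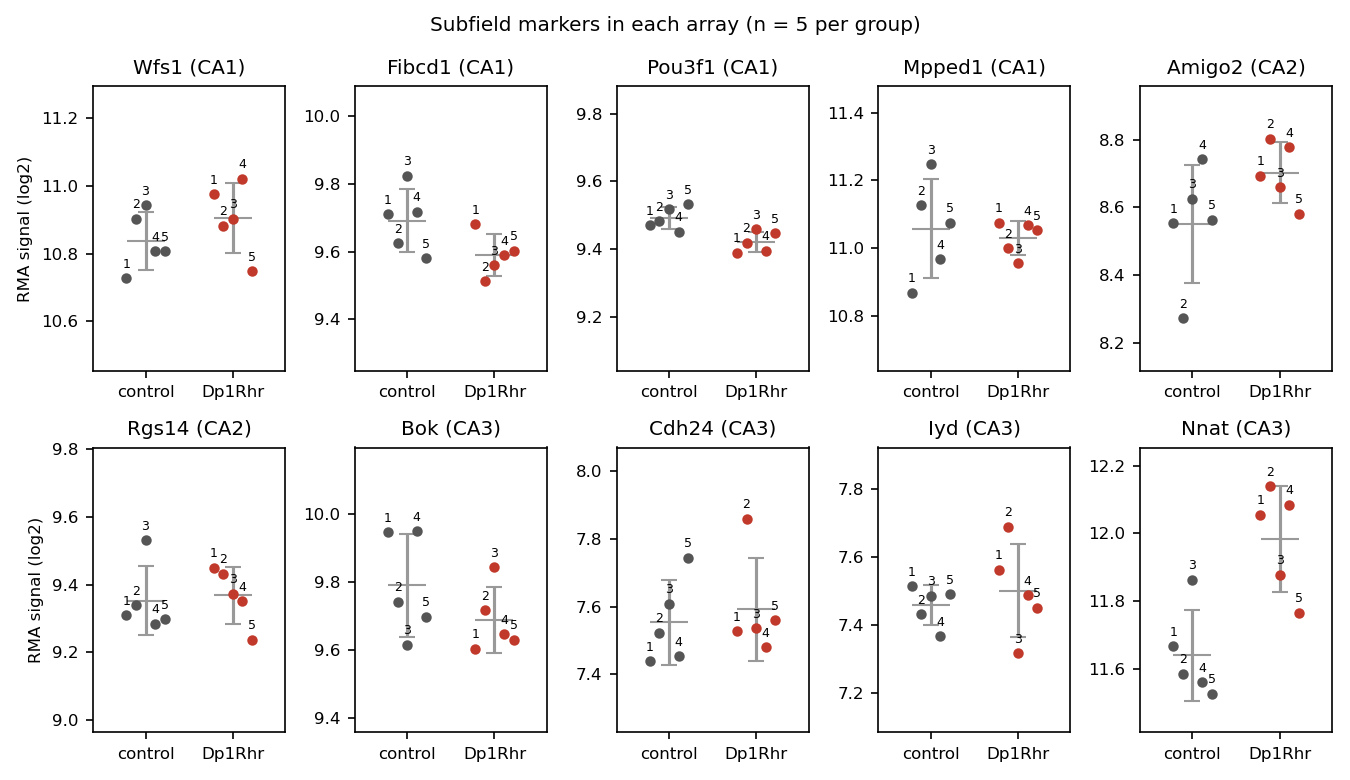
RMA signal (log2) of the 10 subfield markers in each of 5 control (grey) and 5 Dp1Rhr (red) arrays. Each point is 1 mouse with its replicate number, the bars give the mean and SD, and every panel spans the same log2 range. Nnat has 4 of 5 Dp1Rhr arrays above all 5 controls, whereas the groups overlap broadly in Wfs1, Mpped1, Cdh24 and Iyd.

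The 4 CA1 markers did not share a direction. Wfs1 (chr5:36966104-36988982, coordinates in RefSeq GRCm38.p6 throughout) encodes wolframin, a membrane protein of the endoplasmic reticulum that is mutated in Wolfram syndrome. Its log2 signal was 10.73, 10.90, 10.94, 10.81 and 10.81 in control replicates 1 to 5, and 10.97, 10.88, 10.90, 11.02 and 10.75 in Dp1Rhr replicates 1 to 5. The lowest control and the lowest Dp1Rhr array lay side by side, and most other values fell in a common range. The means were 10.84 ± 0.09 in control and 10.91 ± 0.10 in Dp1Rhr (SD, n = 5 each), a log2 fold change of 0.07 (95% interval -0.05 to 0.19, limma adjusted p = 0.633).

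Fibcd1 (chr2:31813290-31846964) encodes a transmembrane receptor that binds acetylated sugars. Its log2 signal was 9.71, 9.62, 9.82, 9.72 and 9.58 in the control arrays and 9.68, 9.51, 9.56, 9.59 and 9.60 in the Dp1Rhr arrays. All 5 Dp1Rhr values were below the control mean, but Dp1Rhr replicate 1 was higher than control replicates 2 and 5. The log2 fold change was -0.10 (95% interval -0.21 to 0.00, limma adjusted p = 0.338), and a two-sided exact permutation test over the 10 arrays gave p = 0.0635.

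Pou3f1 (chr4:124657646-124660655), also known as Oct-6, is a POU-domain transcription factor. It was at 9.47, 9.48, 9.52, 9.45 and 9.53 on the log2 scale in control and at 9.39, 9.42, 9.46, 9.40 and 9.45 in Dp1Rhr. The groups came close to separating: the highest Dp1Rhr array, at 9.459, was just above the lowest control array, at 9.452. The spread within groups was also small, 9.49 ± 0.03 in control and 9.42 ± 0.03 in Dp1Rhr (SD, n = 5 each). The log2 fold change of -0.07 (95% interval -0.13 to -0.01), a ratio of 0.953, did not pass after adjustment over all genes in limma (adjusted p = 0.265), and the exact permutation p was 0.0159 before adjustment.

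Mpped1 (chr15:83779472-83858487) encodes a protein with a metallophosphoesterase domain. Its log2 signal was 10.87, 11.13, 11.25, 10.97 and 11.08 in control and 11.08, 11.00, 10.96, 11.07 and 11.05 in Dp1Rhr. The control arrays spread over a wider range and enclosed all 5 Dp1Rhr arrays, with control replicate 3 the highest and control replicate 1 the lowest of the 10. The log2 fold change was -0.03 (95% interval -0.16 to 0.11, limma adjusted p = 0.907). Averaged per array, the 4 CA1 markers ran from 10.19 to 10.38 in control and from 10.20 to 10.28 in Dp1Rhr, so that the Dp1Rhr arrays lay inside the control range. Their median log2 fold change was -0.05.

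Both CA2 markers had a positive difference, and neither passed. Amigo2 (chr15:97244074-97247287) encodes a leucine-rich repeat adhesion protein of the cell surface. It was at 8.55, 8.27, 8.63, 8.74 and 8.56 on the log2 scale in control and at 8.69, 8.80, 8.66, 8.78 and 8.58 in Dp1Rhr. All 5 Dp1Rhr arrays were above the control mean, while control replicate 4 was above 3 of them and control replicate 2 was far below every other array. The log2 fold change was 0.15 (95% interval -0.01 to 0.32), a ratio of 1.11, with a limma adjusted p of 0.380 and an exact permutation p of 0.103. Without control replicate 2 the difference on the log2 scale was 0.08.

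Amigo2 overlaps its neighbour Pced1b in the annotation, whose own log2 fold change was 0.07 (limma adjusted p = 0.328). Rgs14 (chr13:55369732-55384687) encodes a regulator of G-protein signalling that restrains synaptic potentiation in CA2 neurons. Its log2 signal was 9.31, 9.34, 9.53, 9.28 and 9.30 in control and 9.45, 9.43, 9.37, 9.35 and 9.24 in Dp1Rhr. Control replicate 3 was the highest and Dp1Rhr replicate 5 the lowest of all 10 arrays, and the other 8 arrays lay between 9.28 and 9.45. For Rgs14 the log2 fold change was 0.02 (95% interval -0.10 to 0.13, limma adjusted p = 0.938).

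Of the CA3 markers, Nnat had the largest difference among the 10 genes, Bok had a negative difference of the size of that of Fibcd1, and Cdh24 and Iyd were near 0. Nnat (chr2:157560078-157562525) encodes neuronatin, a small membrane protein expressed from the paternal allele. Its log2 signal was 11.67, 11.59, 11.86, 11.56 and 11.53 in control and 12.05, 12.14, 11.88, 12.08 and 11.77 in Dp1Rhr. Dp1Rhr replicates 1, 2 and 4 stood well above the controls, Dp1Rhr replicate 3 was level with the highest control, and Dp1Rhr replicate 5 fell between control replicates 1 and 3. The means were 11.64 ± 0.13 in control and 11.98 ± 0.16 in Dp1Rhr (SD, n = 5 each), a log2 fold change of 0.34 ± 0.08 (SE), or 1.27-fold with a 95% interval from 1.13 to 1.43. The limma adjusted p was 0.0731 and the two-sided exact permutation p, unadjusted, was 0.0159, where 0.00794 is the smallest that 5 against 5 arrays can give.

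The call on Nnat changed when single arrays were left out or weighted. Without Dp1Rhr replicate 5 its log2 fold change was 0.40 and the limma adjusted p fell to 0.0306, and with arrays weighted by their quality these values were 0.37 and 0.0450. Over all 19 settings tried the adjusted p ran from 0.0306 to 0.195, and the difference stayed positive. Nnat lies inside the span of the gene Blcap, and Blcap was at 9.02 ± 0.12 in control and 9.03 ± 0.05 in Dp1Rhr (SD, n = 5 each), a log2 fold change of 0.01 (limma adjusted p = 0.971).

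Bok (chr1:93685575-93695770) encodes a pro-apoptotic protein of the BCL2 family. It was at 9.95, 9.74, 9.61, 9.95 and 9.70 on the log2 scale in control and at 9.60, 9.72, 9.84, 9.65 and 9.63 in Dp1Rhr. Control replicates 1 and 4 stood above the rest, and the other 3 controls lay among the Dp1Rhr arrays. Bok thus differed by -0.10 on the log2 scale (95% interval -0.25 to 0.05, limma adjusted p = 0.557).

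Cdh24 (chr14:54631231-54642067) encodes a type II cadherin, a calcium-dependent adhesion protein. Its log2 signal was 7.44, 7.52, 7.61, 7.45 and 7.74 in control and 7.53, 7.86, 7.54, 7.48 and 7.56 in Dp1Rhr. Apart from Dp1Rhr replicate 2 the Dp1Rhr arrays sat within the control range. Its log2 fold change was 0.04 (limma adjusted p = 0.885), and a second, dimmer probe set of Cdh24 gave -0.03.

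Iyd (chr10:3540274-3554880) encodes iodotyrosine deiodinase, which recovers iodide from iodinated tyrosines. It was at 7.51, 7.43, 7.49, 7.37 and 7.49 on the log2 scale in control and at 7.56, 7.69, 7.32, 7.49 and 7.45 in Dp1Rhr. The highest and the lowest of the 10 arrays were both Dp1Rhr. For Iyd the log2 fold change was 0.04 (95% interval -0.09 to 0.17, limma adjusted p = 0.818). The median over the 4 CA3 markers was 0.04, and their mean per array ran from 9.07 to 9.14 in control and from 9.10 to 9.35 in Dp1Rhr.

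**Figure D2:**
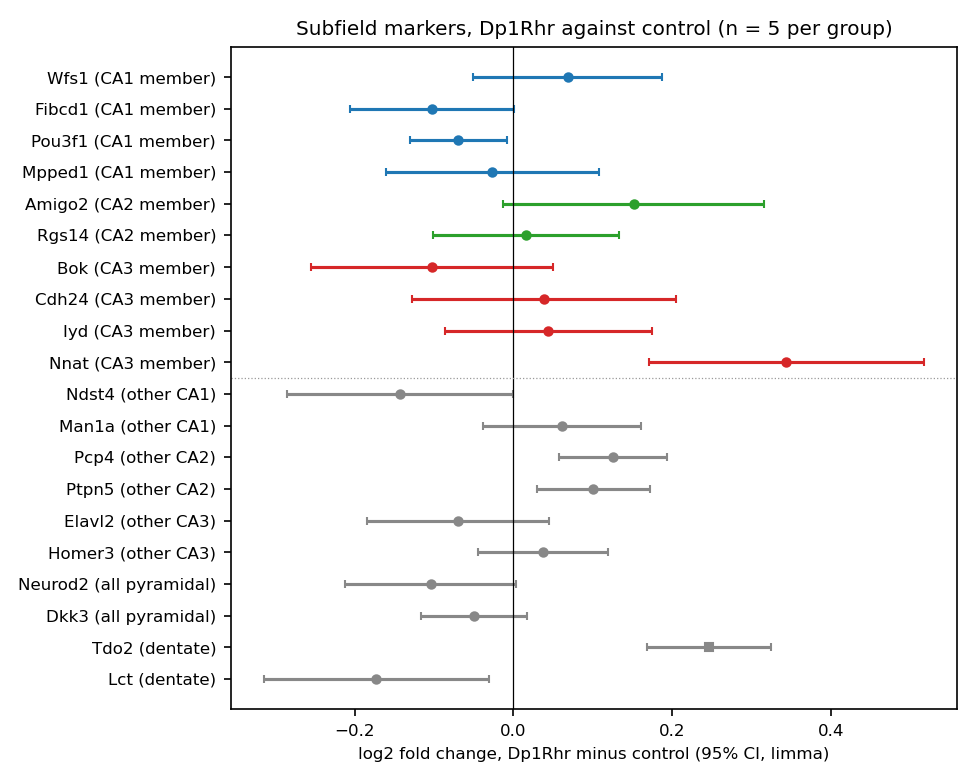
log2 fold change, Dp1Rhr minus control, with the 95% interval from limma, for the 10 subfield markers (coloured by field) and for named markers of other lists (grey). The square, Tdo2, is the 1 gene shown that passed the adjusted threshold, and Nnat is the subfield marker farthest from 0, at 0.34.

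The intervals give the precision of the differences in measured signal. Leaving Nnat aside, the 95% intervals of the fold change of the other 9 markers lay between 0.838 (the lower bound of Bok) and 1.24 (the upper bound of Amigo2). Larger shifts in the measured signal of these single genes lay outside their intervals. The intervals were taken for each gene on its own, and they do not bound a shift of RNA that the arrays register only in part. The interval of Pou3f1 left out 0, and those of the other 8 included it. Over all settings, Wfs1, Amigo2 and Nnat stayed higher in Dp1Rhr and Fibcd1, Pou3f1 and Bok lower, whereas Mpped1, Rgs14, Cdh24 and Iyd crossed 0 in at least 1 setting.

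**Figure D3:**
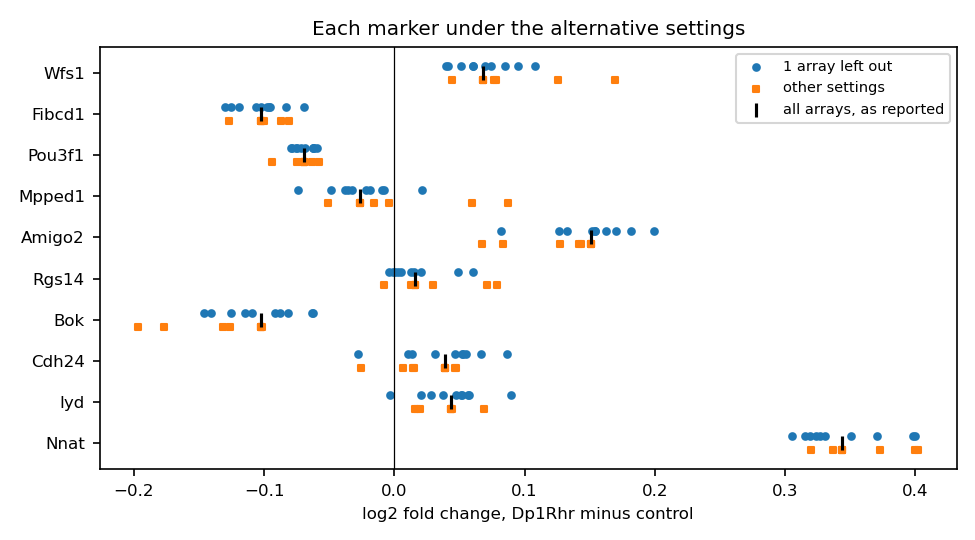
log2 fold change of each subfield marker, Dp1Rhr minus control, under every setting tried: all arrays as reported (black bar), 1 array left out (blue points) and other settings (orange squares). Nnat stays between 0.31 and 0.40, and Mpped1, Rgs14, Cdh24 and Iyd have points on both sides of 0.

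Within the groups, some arrays stood highest or lowest in several markers, which was not tested. Control replicate 3 was the highest control in 5 of 10 markers, drawn from all 3 fields, and Dp1Rhr replicate 5 was the lowest Dp1Rhr array in 4. Dp1Rhr replicate 2 was the highest of all arrays in Amigo2, Cdh24, Iyd and Nnat. After group means were removed, Pearson's r over the 10 arrays between markers of the same field ran from -0.35 for Bok with Iyd to 0.63 for Wfs1 with Mpped1, and it was 0.22 for Amigo2 with Rgs14. The strongest relations of each sign joined markers of different fields, as do most pairs of the 10 markers. The values were r = 0.85 for Nnat with Rgs14 and r = -0.91 for Bok with Mpped1. Control replicate 1 was low in Mpped1 and high in Bok, and control replicate 3 the reverse. These correlations describe 10 arrays that went through the same RMA processing, and they carry no test.

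The genes whose pattern came closest to each marker were sought among 11962 genes above the 40th percentile, again with group means removed over the 10 arrays. With so many genes and 10 arrays, high values of r can arise from the search alone, and they were not tested. Nnat was closest to Wars2 (r = 0.97), Ptn (r = 0.96) and Smim8 (r = 0.95). Of these, Smim8 rose in Dp1Rhr (log2 fold change 0.24, limma adjusted p = 0.0110), whereas Wars2 was at -0.02 (adjusted p = 0.911) and Ptn at 0.15 (adjusted p = 0.0923). For the other markers the closest were Nol3 for Wfs1 (r = 0.95), Rabif for Fibcd1 (r = 0.98), Tiam1 for Pou3f1 (r = 0.90), Rtn2 for Mpped1 (r = 0.97), Rngtt for Amigo2 (r = 0.97), Slc9a9 for Rgs14 (r = 0.95), Abat for Bok (r = 0.95), Snapc4 for Cdh24 (r = 0.94) and Thoc3 for Iyd (r = 0.97). No marker appeared among the 3 closest genes of another marker.

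Further markers of the same fields gave no call either. Of all genes, 15.0% reached an unadjusted p of 0.05 in limma, a share to set beside the counts at that p here and below. Of 4 other CA1 markers 0 passed in limma, and 1 reached that p. That gene, Ndst4, a heparan sulphate sulphotransferase, differed by -0.14 ± 0.07 on the log2 scale (SE; adjusted p = 0.332), and the list median was -0.03. Man1a, a mannosidase, was at 0.06 (adjusted p = 0.604). Of 5 other CA3 markers, 0 passed in limma and 0 reached an unadjusted p of 0.05. Their median was -0.05, with Elavl2, an RNA-binding protein of neurons, at -0.07 (adjusted p = 0.602) and Homer3, a postsynaptic scaffold, at 0.04 (adjusted p = 0.722).

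The other CA2 markers leaned the same way as Amigo2 without passing. All 6 were higher in Dp1Rhr, with a median log2 fold change of 0.10, 0 past the limma threshold and 3 at an unadjusted p of 0.05. Among these, Pcp4, a calmodulin-binding protein abundant in CA2, lies inside the duplicated interval and so had an extra gene copy. Pcp4 was at 12.42, 12.33, 12.35, 12.39 and 12.34 on the log2 scale in control and at 12.44, 12.51, 12.55, 12.49 and 12.46 in Dp1Rhr. Its groups did not overlap, and its log2 fold change was 0.13 ± 0.03 (SE, limma adjusted p = 0.0843).

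Ptpn5, a striatum-enriched tyrosine phosphatase that is also high in CA2, was at 9.72 ± 0.05 in control and 9.82 ± 0.04 in Dp1Rhr (SD, n = 5 each), a log2 fold change of 0.10 (limma adjusted p = 0.165). Necab2, a calcium-binding protein named here after its value was seen, had the largest difference of the list, 0.23 (limma adjusted p = 0.331), with Dp1Rhr replicates 2 and 4 at 10.55 and 10.71 and the other 8 arrays from 9.94 to 10.32. Without Pcp4, a comparison added after the data were seen, the mean of the remaining 5 genes ran from 8.31 to 8.43 in control and from 8.41 to 8.53 in Dp1Rhr, and the median log2 fold change was 0.09. The groups of that mean overlapped at Dp1Rhr replicate 5, which at 8.41 lay below control replicate 3 at 8.43.

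Genes shared by pyramidal neurons of all fields had small differences. Of 9 measured, 0 passed in limma and 0 reached an unadjusted p of 0.05, although all 9 had a negative difference, from -0.10 in Neurod2, a transcription factor of excitatory neurons (adjusted p = 0.352), to -0.00 in Emx1. Their mean per array ran from 11.28 to 11.37 in control and from 11.26 to 11.30 in Dp1Rhr. The median log2 fold change of -0.05 was of the size of that of the CA1 markers. Camk2a, a synaptic kinase named here after its values were seen, had groups that did not overlap, by a narrow gap: 13.5293 to 13.5601 in control and 13.4921 to 13.5291 in Dp1Rhr, a log2 fold change of -0.03 (limma adjusted p = 0.561). Dkk3, a secreted Wnt pathway protein, was also at -0.05 (adjusted p = 0.507).

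Of 12 dentate gyrus markers 1 rose past the limma threshold, where 125 of all 19938 genes rose. Tdo2, tryptophan dioxygenase, was at 6.75 ± 0.07 in control and 7.00 ± 0.03 in Dp1Rhr (SD, n = 5 each), a log2 fold change of 0.25 ± 0.04 (SE, limma adjusted p = 0.0210), and its groups did not overlap. Lct, another dentate marker, was at -0.17 (adjusted p = 0.227), and the median of the list was 0.04. Markers of ventral hippocampus gave a median of 0.02 with 0 of 6 past the threshold and 1 at an unadjusted p of 0.05. That was Dcn, at 0.43 (adjusted p = 0.243), and Gpc3 was at 0.07 (adjusted p = 0.689).

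**Figure D4:**
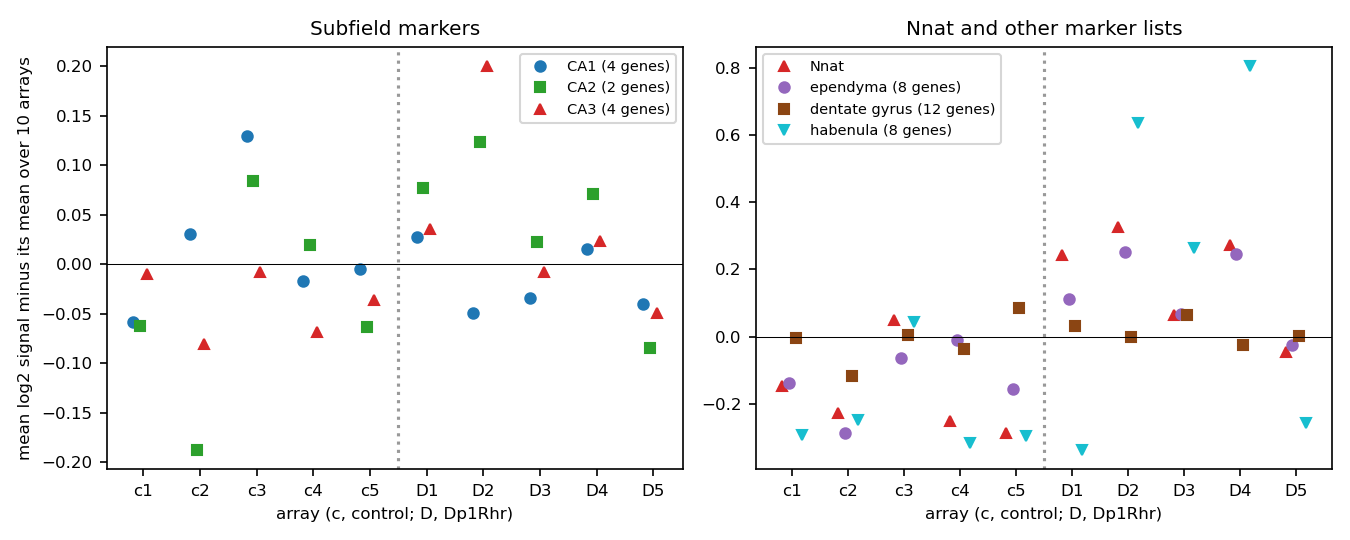
Mean log2 signal of marker lists in each array (c1 to c5, control; D1 to D5, Dp1Rhr), each minus its own mean over the 10 arrays, with CA1, CA2 and CA3 markers on the left and Nnat, ependyma, dentate gyrus and habenula on the right. The 2 panels have different vertical scales. Dp1Rhr replicates 2 and 4 are high and Dp1Rhr replicate 5 is low among Dp1Rhr arrays in both Nnat and the ependyma list.

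Markers of tissue that borders the hippocampus also differed among the arrays. Nnat is also known from ependymal cells, which line the ventricle. All 8 ependyma markers were higher in Dp1Rhr and reached an unadjusted p of 0.05 in limma. Over all genes 15.0% reached that p, the share to set beside this count and those of the tissue lists below. Of the 8 ependyma markers 0 passed the adjusted threshold, and their median log2 fold change was 0.25. Their mean per array was 7.05, 6.90, 7.12, 7.18 and 7.03 in control and 7.30, 7.44, 7.26, 7.43 and 7.16 in Dp1Rhr. From high to low, the Dp1Rhr arrays were in the order of replicates 2, 4, 1, 3 and 5 both in this mean and in Nnat. Among the control arrays, replicate 3 was the highest in Nnat and replicate 4 in the ependyma mean.

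Habenula markers, of which 8 of 8 had a positive difference and 0 passed in limma with 4 at an unadjusted p of 0.05, averaged 6.79 to 7.15 in control. Dp1Rhr replicates 2, 3 and 4 were at 7.74, 7.37 and 7.91 and Dp1Rhr replicates 1 and 5 at 6.77 and 6.85. Dp1Rhr replicates 2 and 4, the highest arrays in this mean and in the ependyma mean, were also the highest in Amigo2 and Necab2. Choroid plexus markers, 16 of 16 with a positive difference and 0 past the limma threshold with 12 at an unadjusted p of 0.05, ran from 8.62 to 9.43 in Dp1Rhr, and in control from 8.43 to 9.05 in 3 arrays but 7.02 and 7.25 in replicates 2 and 3. Leaving out control replicates 2 and 3 moved the log2 fold change of Nnat to 0.40 (limma adjusted p = 0.116), and a choroid plexus score per array as a covariate also gave 0.40 (adjusted p = 0.165). No ependyma or habenula covariate was fitted, and the part of these tissues in the values of Nnat or of the other markers was not tested further. In the lists for thalamus, neocortex, striatum, interneurons, oligodendrocytes, astrocytes, microglia, endothelium, meninges and blood, 1 gene passed in limma, Alas2, an enzyme of haem synthesis in red cells, at a log2 fold change of 0.67 (adjusted p = 0.0304). Apart from blood, with 1 gene measured, the medians of these lists ran from -0.25 in thalamus to 0.15 in oligodendrocytes. Of the thalamus markers, 4 of 6 were lower in Dp1Rhr, with 0 past the limma threshold and 4 at an unadjusted p of 0.05, and their mean per array ran from 9.10 to 9.52 in control and from 8.82 to 9.03 in Dp1Rhr, without overlap. Of the oligodendrocyte markers, 8 of 8 were higher, with 0 past the limma threshold and 5 at an unadjusted p of 0.05, and their mean ran from 11.08 to 11.22 in control and from 11.20 to 11.39 in Dp1Rhr.

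Immediate early genes are switched on by activity in pyramidal and granule neurons alike. All 12 were lower in Dp1Rhr, with a median log2 fold change of -0.54. Of them 2 fell past the limma threshold, against 0.802% of all genes called in either direction. These were Junb, by 0.32 (adjusted p = 0.0269), and Dusp1, by 0.65 (adjusted p = 0.0434). At an unadjusted p of 0.05 in limma 11 of the 12 immediate early genes passed, against 15.0% of all genes. The mean of the 12 per array was 8.26 to 9.16 in control, highest in replicate 3, and 8.00 to 8.19 in Dp1Rhr. Control replicate 3 was also the highest control in Wfs1, Fibcd1, Mpped1, Rgs14 and Nnat.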

How the data were processed

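Each mouse gave 1 Affymetrix Mouse Gene 1.0 ST array of hippocampal total RNA, and groups and replicate numbers came from the labels. The authors ran RMA on the scans (background correction, quantile normalization, summary per probe set) and deposited log2 values, with mm10 named as the build. Quantile normalization hides a change of all genes at once. Of 35556 probe sets, 21789 had 1 gene symbol, and the brightest per gene left 19938 genes, placed by RefSeq GRCm38.p6.

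The test between Dp1Rhr and control was limma 3.58.1 (R 4.3.3; lmFit, eBayes, two-sided, Benjamini-Hochberg over all genes, adjusted p of 0.05), after a check on simulated data. FCROS, the study's method, calls fixed tails (trim 0.25, limits 0.025 and 0.975) and was an alternative, as were a replicate block, each array left out, control replicates 2 and 3 left out, 2 other scalings, a filter on low values, other choices of probe set, trend with robust fitting, array weights and a choroid plexus covariate. Exact permutation tests used all 252 assignments. The number of arrays limits the precision.

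The markers, the lists and the settings were chosen with earlier results of these data known. Named genes were the 10 markers, those of the other lists past the threshold, the 2 with the smallest p in each hippocampal list, Pcp4, genes overlapping a marker, and the 3 most alike in pattern. Necab2, Map3k15, Avpr1b and Camk2a were named after their values were seen.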

Additional observations from a re-analysis of the deposited data

Results flagged for a closer look

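Each of 26 groups of 5 values, the 10 markers and the 3 field means in either genotype, was searched for an array far from the others, and 2 were found, where chance gives about 1 in 20. Rgs14 was at 9.53 in control replicate 3 and between 9.28 and 9.34 in the other 4 controls, a gap of 0.775 of the whole range. Cdh24 was at 7.86 in Dp1Rhr replicate 2 and between 7.48 and 7.56 in the other 4 Dp1Rhr arrays, a gap of 0.790 of the range.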

How the results depend on the processing

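The count of genes past the threshold in limma was 160 with all arrays. It was 4 with a replicate block, 5 without control replicates 2 and 3 and 6 with the choroid plexus covariate. With array weights it was 280, and with 1 array left out 5 to 284. FCROS, which calls fixed tails, called 1075 genes here and 1125 on simulated data without effects. The number of markers called, 0, became 1 (Nnat) with array weights and by FCROS. With 1 array left out it was 0 to 1, where leaving out Dp1Rhr replicate 5 gave the call. The median of the CA1 markers, -0.05, was 0.015 with the choroid plexus covariate and -0.07 to -0.02 with 1 array left out. With 1 array left out the CA2 median was 0.05 to 0.12 and the CA3 median -0.02 to 0.07.

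Wfs1, Fibcd1, Pou3f1, Amigo2, Bok and Nnat kept their direction in all 19 settings. The log2 fold change of Mpped1, -0.03, turned to 0.060 without control replicates 2 and 3 and to 0.087 with the covariate, and ran from -0.074 to 0.021 with 1 array left out. Rgs14, at 0.02, was at -0.0081 after centring on the array median and ran from -0.0042 to 0.061 with 1 array left out. Cdh24, at 0.04, was at -0.026 in its other probe set and ran from -0.028 to 0.086, and Iyd, at 0.04, ran from -0.0033 to 0.090. The cause of these turns was not tested. With all arrays, the 95% interval of each of these 4 markers included 0.

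The replicate numbers did not pair the arrays: deviations of same-numbered arrays correlated at -0.337 to 0.124, and 0 of 5 controls correlated best with their own number. The replicate block left 4 genes past the threshold and 0 markers, with Nnat at an adjusted p of 0.150.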

Other observations

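The window from 250 bases before to 50 bases after the transcription start was searched on both strands for the octamer ATGCAAAT, which POU factors such as Pou3f1 bind, and for the cyclic AMP response element TGACGTCA. RefSeq windows of GRCm38 were found for 8 of the 10 markers, 9 windows in all, and Pou3f1 and Rgs14 had no entry. The octamer was in 0 of the 9 windows and in 1.74% of all 32851 windows. The cyclic AMP response element was in 0 of the 9 and in 1.79% of all.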
